A study of Homo sapiens with 3 samples.

Results

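KCNK5 and 8 other potassium channel genes of epithelial cells (KCNK1, KCNK6, KCNK15, KCNJ3, KCNE4, KCNMA1, KCNN4 and KCNS3) were described in T47D cells given estradiol or the peptide ERα17p. The members were the array probe sets whose platform annotation names exactly 1 of these symbols, 17 of 41091 probe sets with a single gene. They covered 8 of the 9 genes, and KCNJ3, which had no probe set under this rule, is not analysed here. The group was chosen by differences between these same arrays, above all those of KCNK5, so the values below are a description and support nothing beyond themselves.

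T47D is an established line from a human breast cancer and expresses estrogen receptor α. All cultures spent 4 h in medium with 10% charcoal-stripped serum, which is poor in steroids. They were then kept for 3 h with 0.1% ethanol (vehicle), with 1 µM estradiol or with 1 µM ERα17p. Estradiol is the natural ligand of the receptor, and ERα17p is a synthetic peptide taken from the receptor's own sequence. Whether ethanol was also in the treated cultures could not be learned from the labels. Each of the 3 groups was 1 Affymetrix HG-U133 Plus 2 array, so no difference has a replicate error and no significance test was made. The number of arrays limits the precision.

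Potassium channels let K+ leave the cell along its gradient and thereby set the membrane potential. The K2P family (KCNK genes), whose subunits carry tandem pore domains, gives background leak currents. In secretory and absorptive epithelia such leak and calcium-activated channels supply the driving force for chloride and sodium transport and take part in cell volume regulation. KCNK5, also called TASK-2, is opened by alkaline pH and by cell swelling, and it has been described as induced through estrogen receptor α in breast cancer cells. KCNN4 and KCNMA1 are calcium-activated channels that have been studied in the proliferation of tumour cells.

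The upstream sequences of KCNK5 and KCNK1 are shown because these are the K2P genes of the group whose probe sets differed most from the vehicle array. Each is the 250 bases before the annotated start from RefSeq (GRCh38.p14), read 5′ to 3′ on the strand of the gene. Capitals mark the core GGTCA of the estrogen response element, read on either strand (TGACC on the other), and the core GCGTG of the xenobiotic response element.
KCNK5, chr6:39229476-39229725, minus strand: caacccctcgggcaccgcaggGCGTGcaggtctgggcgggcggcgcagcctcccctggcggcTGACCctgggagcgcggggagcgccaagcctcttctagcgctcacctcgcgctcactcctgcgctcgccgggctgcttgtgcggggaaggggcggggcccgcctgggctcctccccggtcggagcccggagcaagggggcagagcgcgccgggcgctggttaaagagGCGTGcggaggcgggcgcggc
KCNK1, chr1:233613856-233614105, plus strand: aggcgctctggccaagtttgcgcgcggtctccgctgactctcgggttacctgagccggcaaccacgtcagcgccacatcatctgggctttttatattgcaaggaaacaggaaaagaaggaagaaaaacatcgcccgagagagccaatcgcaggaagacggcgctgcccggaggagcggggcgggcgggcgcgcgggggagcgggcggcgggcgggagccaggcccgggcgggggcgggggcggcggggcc
The KCNK5 window held 1 match to GGTCA, on the opposite strand and beginning 188 bases before the start, and 2 matches to GCGTG. The KCNK1 window held 0 of either. Of 35116 promoter windows of the same length, 32.6% held GGTCA and 32.2% held GCGTG on at least 1 strand, so a match is common. The full palindromic element, GGTCA and TGACC with 3 bases between them, was in 0.0399% of windows and in neither of these. The GC box GGGCGG, the binding site of SP1, matched 3 times in KCNK5 and 7 times in KCNK1, some of them overlapping, and was in 42.6% of all windows. The GC content of the window was 77.2% for KCNK5 and 69.2% for KCNK1, against a median of 58% over all windows. Of the 9 genes, 7 had a RefSeq window, and KCNK15 and KCNE4 had none in the table. A match is a string of letters and not a site of binding.

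The deposited values were read as log2 values, and each probe set is given relative to a baseline of its own that is not stated. A value of 0 is that baseline, not absence of signal, so values can be compared between arrays for 1 probe set but not between genes. Whether any of these channels lay above background on any array is unknown, and fold sizes hold only if the log base is 2. The vehicle array had the widest spread, with an SD over probe sets other than controls of 0.434 against 0.158 for estradiol and 0.166 for ERα17p. The 3′ less the 5′ control set of ACTB, a sign of RNA quality, was 0.52 with vehicle, −0.29 with estradiol and −0.17 with ERα17p. The 18S RNA control sets averaged −1.76, 0.11 and −0.01 in that order. These features go with every difference from the vehicle below, and their part in those differences was not tested. Both differences from vehicle share the 1 vehicle array. The 9 luminal marker genes listed were all measured, and their differences from vehicle ranged from −0.16 to 1.44 with estradiol (median 0.10) and from −0.19 to 0.89 with ERα17p (median 0.19). The lowest and highest with estradiol were FOXA1 and PGR. PGR was higher by 1.44 ± 0.28 (SD over n = 2 probe sets) with estradiol and by 0.89 ± 0.04 with ERα17p, or by 0.82 and 0.27 with the vehicle array scaled to the SD of the treated arrays. CDH1 was higher by 0.68 ± 0.72 (n = 2) and 0.60 ± 0.38, or by 0.43 and 0.34 with that scaling. For 7 of 8 basal, stromal and blood markers the range was −0.63 to 0.53 with estradiol (median −0.05) and −0.44 to 0.42 with ERα17p (median 0.03). COL1A1 stood at −0.63 ± 0.66 (n = 5) with estradiol, or −0.33 with that scaling, and VIM at 0.53 ± 0.55 (n = 2). Without absolute levels, the identity of the cells could not be checked from these markers.

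KCNK5 was high on the estradiol array alone. Its single probe set, 219615_s_at, read −0.98 with vehicle, 1.41 with estradiol and −0.43 with ERα17p. It lay above its baseline with estradiol and below it on the other arrays. The estradiol minus vehicle difference was 2.39, or 5.24-fold, and ranked 3rd highest among 19775 genes. That ranking sets 1 probe set against means for genes with several, and among the 41091 single probe sets the same difference ranked 63rd. ERα17p minus estradiol was −1.84 (3.58-fold lower with ERα17p), the 4th lowest of the 19775 genes and the 8th lowest of the probe sets, and this comparison does not use the vehicle array. The ERα17p minus vehicle difference was 0.55, or 1.47-fold, and ranked 1521st. That last direction was not stable to scaling: it was −0.16 when the arrays were quantile normalized and −0.065 when the vehicle array was scaled to the SD of the treated arrays. In bulk RNA, a higher level per cell and more cells that express the gene cannot be told apart. The order estradiol, ERα17p, vehicle holds for the deposited values, and the position of the peptide array relative to the vehicle array depends on the scaling. The estradiol array was highest under all the scalings run. The suffix _s_at marks a probe set whose probes can match more than 1 transcript, and no second KCNK5 probe set was available to set beside it.

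**Figure D1:**
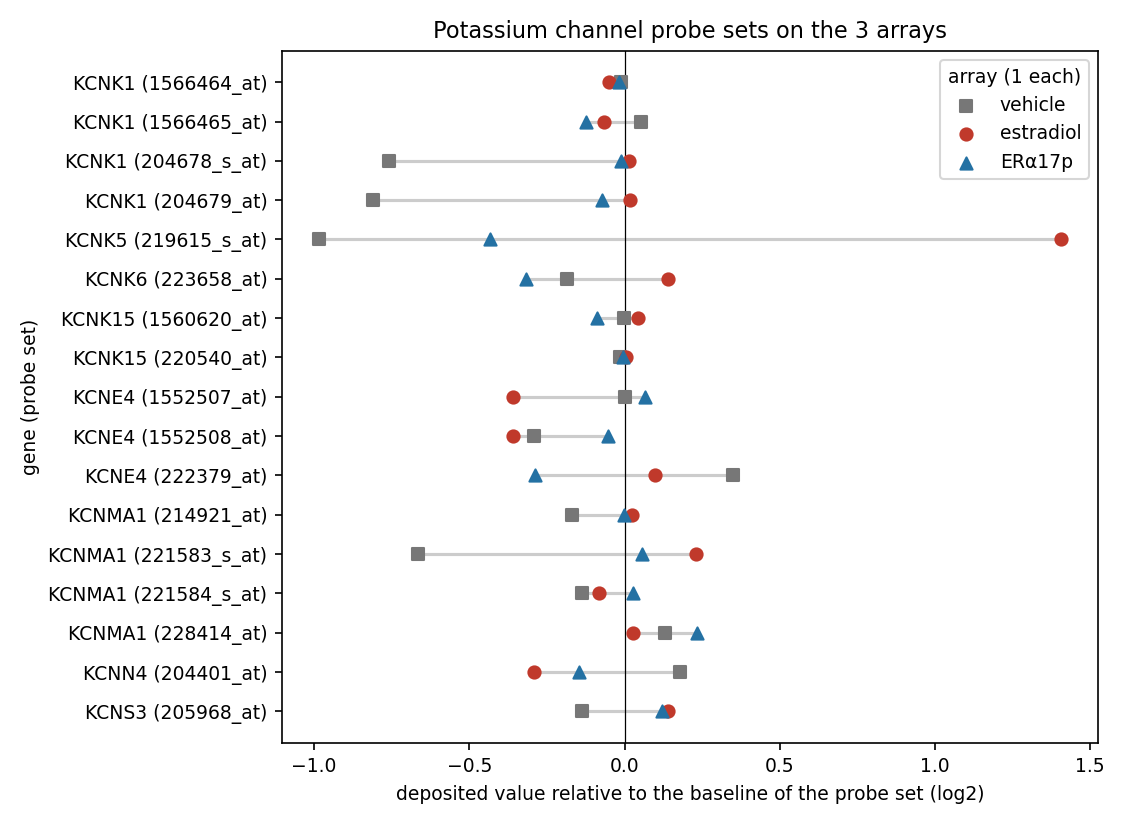
Values of the 17 potassium channel probe sets on the vehicle (grey squares), estradiol (red circles) and ERα17p (blue triangles) arrays, 1 array each. The horizontal axis is the deposited value, read as log2, relative to the probe set's own baseline. KCNK5 spans from −0.98 to 1.41, and the vehicle value stands apart from both treated values for 2 KCNK1 probe sets and for KCNMA1 221583_s_at.

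KCNK1, the leak channel TWIK-1, gave a split picture between its 4 probe sets. The set 204678_s_at read −0.76 with vehicle, 0.01 with estradiol and −0.01 with ERα17p. The set 204679_at read −0.81, 0.02 and −0.07 in the same order. Both were lower on the vehicle array than on either treated array, which lay close to each other. Their mean difference from vehicle was 0.80 ± 0.04 (SD, n = 2 probe sets) for estradiol and 0.74 ± 0.00405 for ERα17p, all 4 differences between percentiles 92.7 and 94.2 of the probe sets, and ERα17p minus estradiol was −0.06 ± 0.04. The other pair, 1566464_at and 1566465_at, was designed on a different sequence record and stayed near 0, with mean differences from vehicle of −0.08 ± 0.06 and −0.09 ± 0.12. Averaged over all 4 sets, KCNK1 differed from vehicle by 0.36 ± 0.51 (SD, n = 4) with estradiol and by 0.32 ± 0.49 with ERα17p, less than the spread between its own probe sets. With the vehicle array scaled these means were 0.12 and 0.085.

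KCNK6, the relative of KCNK1 called TWIK-2, read −0.19 with vehicle, 0.14 with estradiol and −0.32 with ERα17p from 1 probe set. Estradiol was the highest of the 3, as for KCNK5, but the differences were small. The estradiol minus vehicle difference was 0.33, ERα17p minus vehicle was −0.13 and ERα17p minus estradiol was −0.46, or 1.37-fold, the 264th lowest of 19775 genes. With the arrays quantile normalized, ERα17p minus estradiol was −0.70, past 1.5-fold. In that setting 2.34% of all genes were lower by that size, beside 0.607% for the deposited values.

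KCNK15, or TASK-5, a K2P subunit that has not been found to carry current on its own, was nearly flat. Its probe set 1560620_at read −0.001 with vehicle, 0.04 with estradiol and −0.09 with ERα17p. The set 220540_at read −0.01, 0.006 and −0.006. The mean differences were 0.03 ± 0.02 (SD, n = 2 probe sets) for estradiol, −0.04 ± 0.07 for ERα17p and −0.07 ± 0.09 between ERα17p and estradiol.

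The calcium-activated channels gave differences on both sides of 0. KCNN4, the intermediate-conductance channel KCa3.1, read 0.18 with vehicle, −0.29 with estradiol and −0.15 with ERα17p. It was thus the measured member with the lowest differences from vehicle, −0.47 (1.38-fold) with estradiol and −0.32 (1.25-fold) with ERα17p, both under 1.5-fold. Under quantile normalization the estradiol difference was −0.61, past that size.

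KCNMA1 encodes the pore of the large-conductance BK channel, which opens with calcium and depolarisation. Its probe set 221583_s_at read −0.67 with vehicle, 0.23 with estradiol and 0.06 with ERα17p, giving differences from vehicle of 0.90 and 0.72. The other 3 sets did not share this. Their differences from vehicle ranged from −0.10 to 0.19 with estradiol and from 0.10 to 0.17 with ERα17p. The gene means were 0.26 ± 0.44 (SD, n = 4 probe sets) and 0.29 ± 0.29, no larger than the spread between the sets. With the vehicle array scaled these means were 0.13 and 0.16. ERα17p minus estradiol was 0.03 ± 0.17. KCNMA1 had a pair of RefSeq windows, of which the one at chr10:77350762-77351011 (GRCh38.p14, minus strand) held 2 matches to the AP-1 motif TGANTCA, found in 6.57% of windows, and 1 match to GGTCA. Among the other members, GGTCA was also in 1 of the KCNS3 windows, and GCGTG in that of KCNK6.

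The remaining members are a voltage-gated subunit and an auxiliary subunit. KCNS3, a subunit that is silent alone and modifies the Kv2 channels it joins, read −0.14 with vehicle, 0.14 with estradiol and 0.12 with ERα17p. Both treated arrays were higher than the vehicle array, by 0.28 and 0.26, and they differed from each other by −0.02. KCNE4 encodes a small membrane protein that inhibits certain voltage-gated channels. Its set 1552507_at read 0.001 with vehicle, −0.36 with estradiol and 0.06 with ERα17p, and 1552508_at read −0.29, −0.36 and −0.05. The set 222379_at had another order, at 0.35, 0.10 and −0.29. With estradiol all 3 sets were below vehicle, with a mean of −0.23 ± 0.15 (SD, n = 3 probe sets). With ERα17p the sets were split, with a mean of −0.11 ± 0.46 and a median of 0.06, and 222379_at alone was past 1.5-fold, at −0.64. ERα17p minus estradiol was 0.42 and 0.31 in the first sets and −0.38 in 222379_at, a mean of 0.12 ± 0.44.

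**Figure D2:**
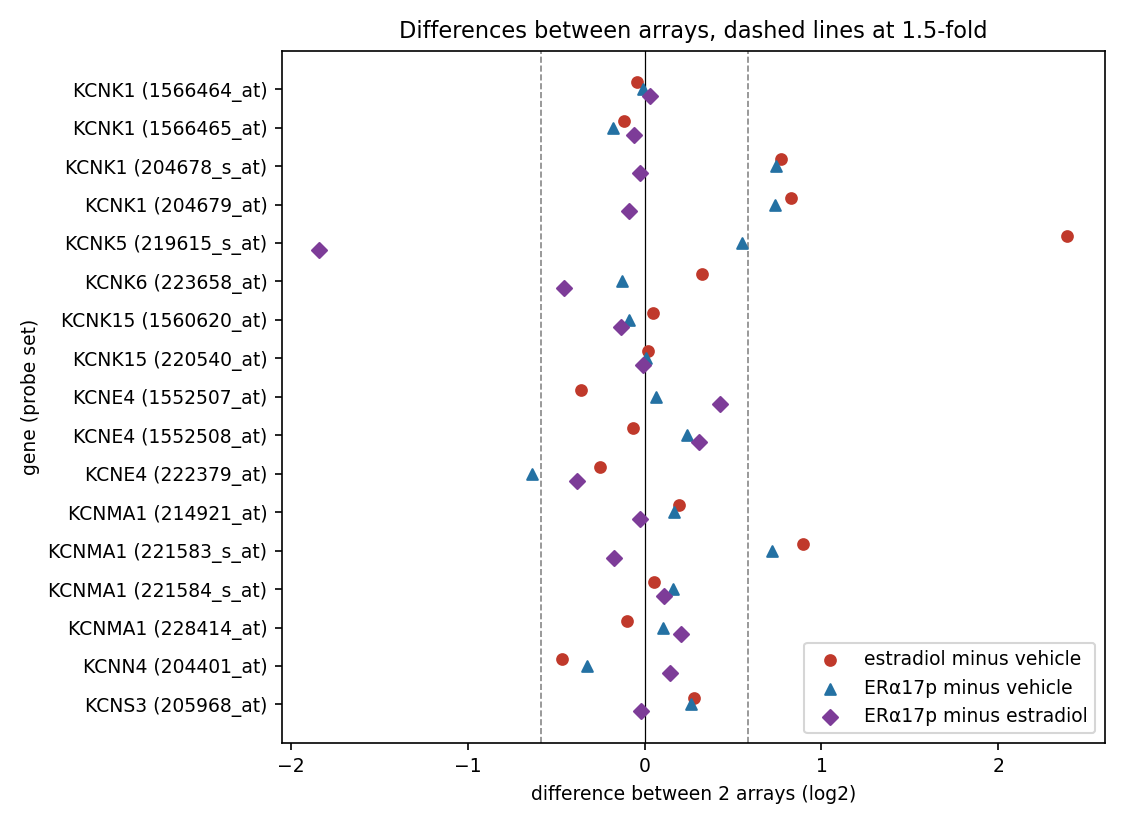
Differences between arrays on the log2 scale for the 17 probe sets, as estradiol minus vehicle (red circles), ERα17p minus vehicle (blue triangles) and ERα17p minus estradiol (purple diamonds), with dashed lines at 1.5-fold. KCNK5 at −1.84 is the single probe set past the lines for ERα17p minus estradiol, whereas 4 probe sets are past them for estradiol minus vehicle.

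Over the 8 measured genes, 1 (KCNK5) was at least 1.5-fold higher with estradiol than with vehicle and 0 were lower, where 6.48% of all genes were higher and 8.42% lower by that size. For ERα17p minus vehicle 0 genes were past 1.5-fold on either side, where 6.88% of all genes were higher and 8.76% lower. For ERα17p minus estradiol, KCNK5 was again the 1 gene past 1.5-fold, on the lower side, where 0.607% of all genes were lower and 0.521% higher. Because KCNK5 was chosen for its size, nothing is read from these counts about the group. The all-gene shares depend on the scaling. With the vehicle array scaled to the SD of the treated arrays, 0.748% of all genes were higher with estradiol and 0.582% lower. For ERα17p these shares were 1.28% and 0.784%. With quantile normalization, ERα17p minus estradiol gave 3.24% higher and 2.34% lower. Counted by probe set, 4 of 17 were at least 1.5-fold higher with estradiol (10.4% of all probe sets) and 0 lower (9.99% of all). Those higher were KCNK5, 2 of KCNK1 and 1 of KCNMA1. Counts by probe set were made on the deposited values only and not with the vehicle array scaled. With ERα17p 3 of 17 were higher (10.5% of all), the same KCNK1 and KCNMA1 sets, and 1 was lower (10.1% of all). Between ERα17p and estradiol 1 of 17, KCNK5, was lower (1.14% of all) and 0 were higher (0.891% of all). The median difference of the 8 genes was 0.27 for estradiol, 0.11 for ERα17p and −0.03 between ERα17p and estradiol, beside −0.00427, 0.00113 and 0.00625 over all genes.

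The rest of the potassium channel genes were described from family lists, 78 measured of 88 listed without the members. At least 1.5-fold higher on the estradiol array were 2 of the 78 (2.56%, beside 6.48% of all genes) and lower 1 (1.28%, beside 8.42%). With ERα17p 1 was higher (1.28%, beside 6.88%) and 0 lower (beside 8.76%). Between ERα17p and estradiol 0 were past that size in the deposited values, beside 0.521% of all genes higher and 0.607% lower. The median differences were 0.03, 0.03 and 0.000402. Among 10 other K2P genes, KCNK2, the mechanosensitive channel TREK-1, read −1.37 with vehicle, 0.12 with estradiol and 0.28 with ERα17p from 1 probe set. Like the pair of KCNK1 sets it was low on the vehicle array alone, with differences from vehicle of 1.49 and 1.65 and of 0.16 between the treated arrays. With the vehicle array scaled, these differences from vehicle were 0.63 and 0.79. Among 13 inward rectifiers, which pass K+ more readily into the cell than out of it, KCNJ2 (Kir2.1) read −0.32 with vehicle, 0.45 with estradiol and 0.00133 with ERα17p. It was highest with estradiol, by 0.77 over vehicle, and ERα17p stood at −0.45 from estradiol. Among 16 auxiliary subunits, KCNAB2, a β subunit of Kv1 channels, was lower with estradiol, at −0.64 ± 0.12 (SD, n = 2 probe sets), and stood at −0.28 ± 0.38 with ERα17p. With the vehicle array scaled, the estradiol differences were 0.57 for KCNJ2 and −0.40 for KCNAB2, both under 1.5-fold. With quantile normalization they were 0.91 and −0.68, both past it. In that setting ERα17p minus estradiol was −0.70 for KCNJ2 and 0.595 for KCNAB2, also past 1.5-fold. Of all genes, 3.24% were then higher and 2.34% lower by that size in this last comparison. Of 34 other voltage-gated subunits and 5 other calcium- or sodium-activated channels, 0 were past 1.5-fold in the 3 comparisons of the deposited values. In those values the largest difference between ERα17p and estradiol among the 78 was 0.53, for KCNS1. This gene was singled out after its value was seen.

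**Figure D3:**
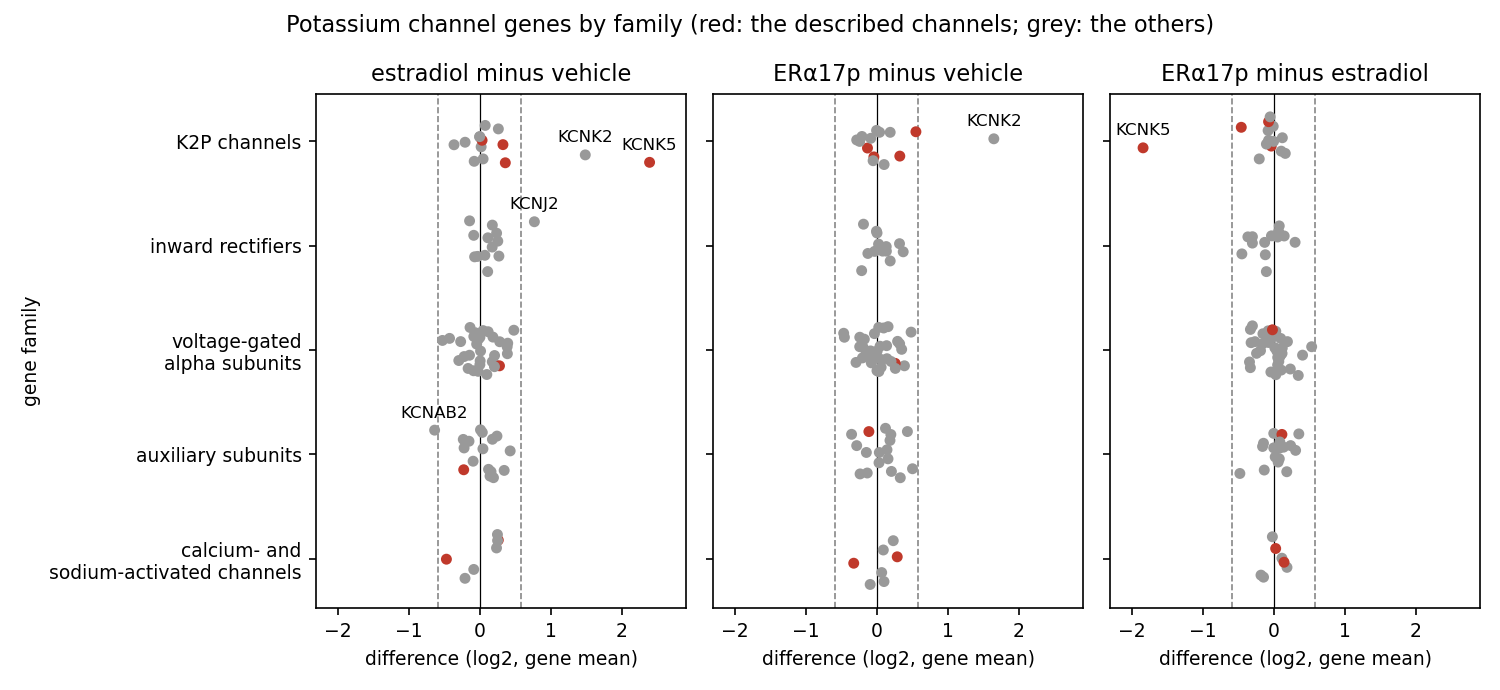
Gene mean differences on the log2 scale for the potassium channel genes by family, with 1 panel for each comparison, the described channels in red and the other 78 measured genes in grey, and dashed lines at 1.5-fold. KCNK5 and KCNK2 stand apart for estradiol minus vehicle, KCNK2 alone for ERα17p minus vehicle (1.65) and KCNK5 alone for ERα17p minus estradiol (−1.84).

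The genes beside KCNK5 on chromosome 6 did not share its difference by size. KCNK17 and KCNK16, K2P genes that are its nearest protein-coding neighbours on one side in the RefSeq gene order, stood at −0.000403 and −0.36 for estradiol minus vehicle and at −0.05 and −0.24 for ERα17p minus vehicle. On the other side SAYSD1 stood at 0.18 ± 0.19 (SD, n = 3 probe sets) and 0.15 ± 0.16, and GLP1R, the receptor for glucagon-like peptide 1, at 0.06 ± 0.15 (n = 5) and 0.01 ± 0.14. These neighbours were looked at after the KCNK5 values were known.

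Potassium channels work beside pumps, chloride and sodium channels and cotransporters in epithelial transport, and 21 of 25 such genes were measured. At least 1.5-fold higher on the estradiol array were 2 (9.52%, beside 6.48% of all genes) and lower 4 (19%, beside 8.42%). With ERα17p 2 were higher (9.52%, beside 6.88%) and 5 lower (23.8%, beside 8.76%). Between the treated arrays 0 were past that size, where 0.521% of all genes were higher with ERα17p and 0.607% lower. FXYD5, a regulator of the sodium pump, read 1.29 with vehicle, −0.18 with estradiol and −0.05 with ERα17p, differences of −1.47 ± 0.11 (SD, n = 2 probe sets) and −1.33 ± 0.000635. SCNN1B, a subunit of the epithelial sodium channel, read 1.21, −0.18 and 0.04, differences of −1.39 and −1.17. FXYD3, of the same family as FXYD5, stood at −0.81 ± 0.12 (n = 2) and −0.75 ± 0.04. CLCN3, a chloride and proton exchanger, was higher, by 0.79 ± 0.50 (n = 4) and 0.80 ± 0.34. In all of these the vehicle array stood apart and the treated arrays were close. With the vehicle array scaled, FXYD5 stood at −0.66 with estradiol and −0.53 with ERα17p, and SCNN1B at −0.63 and −0.41, so that only their estradiol differences stayed past 1.5-fold. FXYD3 (−0.36 and −0.30) and CLCN3 (0.36 and 0.37) were then under 1.5-fold in both comparisons. The list medians were −0.22 for estradiol and −0.16 for ERα17p, beside −0.00427 and 0.00113 over all genes.

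Among 10 measured kinases and regulators of ion transport, SGK1 had the same order of estradiol above both other arrays as KCNK5. WNK1 had it too by smaller differences, 0.48 ± 0.46 (SD, n = 7 probe sets) over vehicle, with ERα17p at −0.35 ± 0.33 from estradiol. SGK1, a kinase that raises the surface number of several ion channels, read −0.13 with vehicle, 1.35 with estradiol and −0.28 with ERα17p from 1 probe set. Its differences were 1.47 for estradiol minus vehicle, −0.15 for ERα17p minus vehicle and −1.63 for ERα17p minus estradiol, and their signs held under every scaling run. WNK4, a kinase that regulates chloride cotransport, stood at −0.92 ± 1.27 (SD, n = 2 probe sets) with estradiol and −1.02 ± 1.21 with ERα17p. Only its probe set 229158_at was far from 0, at −1.81 and −1.88, and its means with the vehicle array scaled were −0.43 and −0.54.

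The 5 genes most like KCNK5 were those with the smallest distance in the pair of differences from vehicle, over 3 arrays, among all 19775 genes. The nearest was MYC, the growth-promoting transcription factor, at a distance of 0.36 on the log2 scale. MYC read −1.27 with vehicle, 0.80 with estradiol and −0.90 with ERα17p. KCTD6, an adaptor of cullin ubiquitin ligases and no channel, followed at 0.47, then ADRA2A, an adrenergic receptor, at 0.77, ZSWIM6 at 0.84 and the RNA-binding gene RBM24 at 0.88. MYC, ADRA2A, ZSWIM6 and RBM24 each had 1 probe set, so the search set single probe sets against means of several. Like KCNK5, MYC has no value once sets ending in _x_at or _s_at are left out. Estradiol minus vehicle was 2.07 for MYC, 1.92 ± 0.63 (SD, n = 2 probe sets) for KCTD6, 1.90 for ADRA2A, 1.55 for ZSWIM6 and 1.65 for RBM24, against 2.39 for KCNK5. ERα17p minus vehicle was 0.38, 0.62 ± 0.78, −0.05, 0.52 and 0.07 in that order. As for KCNK5, the sign of that difference turned under quantile normalization for MYC (−0.73) and RBM24 (−0.66), and with the vehicle array scaled it was −0.42 and −0.38. ADRA2A stood at −1.10 and −0.84 under these settings, past 1.5-fold. KCTD6 stood at 0.20 and 0.14, and ZSWIM6 at 0.17 and 0.081. ERα17p minus estradiol was −1.70 for MYC, −1.30 ± 0.15 for KCTD6, −1.95 for ADRA2A, −1.03 for ZSWIM6 and −1.58 for RBM24. A likeness over 3 values says nothing of shared function.

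**Figure D4:**
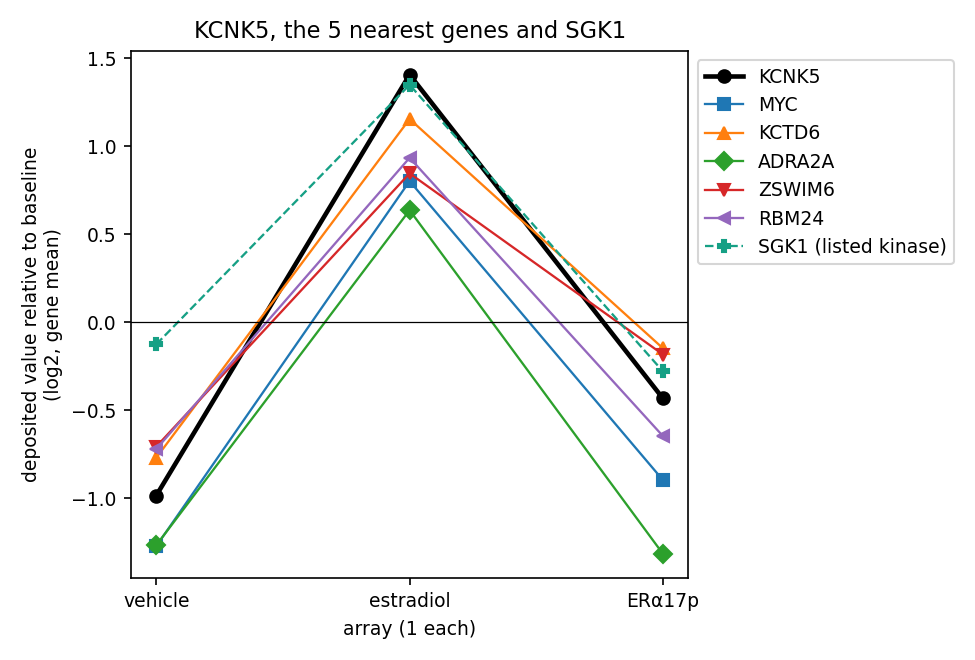
Deposited values relative to baseline (log2, mean over the probe sets of a gene) on the vehicle, estradiol and ERα17p arrays for KCNK5 (black), the 5 genes nearest to it and SGK1 (dashed), with lines joining the 3 arrays of a gene. All 7 genes are highest on the estradiol array, where KCNK5 is at 1.41 and MYC at 0.80. For the 5 nearest genes this follows from how they were chosen.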

How the data were processed

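Total RNA of 3 T47D cultures was labelled with biotin and hybridised to 1 array each, per the labels' protocols. The submitters' processing notes name RMA for the deposited values, which were read as log2 and lie around a baseline per probe set. How they were centred, on which baseline, with which RMA version and in which log base is not stated there. The 54675 probe sets included 62 controls. Platform annotation gave 41091 probe sets 1 gene symbol, 1801 several and 11721 none. Only the first kind was used, and 41037 matched a current gene number. The 19775 gene values are means over probe sets, and an SD is over the probe sets of a gene.

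Computed were differences between arrays, calls at 1.5-fold and 2-fold, and motif matches on both strands of RefSeq windows. With 1 array per group there was no test. Alternatives were the 2-fold threshold, probe sets in place of genes, the median of probe sets, leaving out sets ending in _x_at or _s_at, median centring, quantile normalization and, added after the data were seen, a vehicle array scaled to the mean SD of the treated arrays. The members, lists and rules were chosen with earlier results of these data known. All members were named with every probe set, with up to 4 genes per list and comparison of at least 1.5-fold and largest size, and the 5 genes nearest to KCNK5. Python 3.11.15, numpy 2.4.6, pandas 2.3.3 and matplotlib 3.10.9 were used.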

Additional observations from a re-analysis of the deposited data

How the results depend on the processing

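With 1 array per group no alternative could leave out a replicate. No paired analysis was possible because each group has 1 array and no test was run. KCNK5 kept a difference of at least 1.5-fold between estradiol and vehicle with quantile normalization (2.46) and with the vehicle array scaled (1.77). The median of probe sets returns the same 2.39 for a gene with 1 set. Centring, also 2.39, shifts all genes by the same small amount, so neither of these settings could move the result much. ERα17p minus estradiol for KCNK5 was −2.62 with quantile normalization. ERα17p minus vehicle for KCNK5 was −0.16 with quantile normalization and −0.065 with the vehicle array scaled, on the other side of 0 from the 0.55 of the deposited values. KCNK5 has no value without the sets ending in _x_at or _s_at, since its 1 set ends in _s_at. Then 0 of 7 members were higher for estradiol minus vehicle, beside 5.99% of all genes in that setting. For ERα17p minus estradiol 0 of 7 were lower, beside 0.743%. With quantile normalization 1 member (KCNN4) was lower for estradiol minus vehicle, beside 4.47% of all genes. In that setting 2 (KCNK5 and KCNK6) were lower for ERα17p minus estradiol, beside 2.34%. With probe sets in place of genes, 4 were higher for estradiol (10.4% of all probe sets). For ERα17p 3 were higher (10.5% of all) and 1 lower (10.1% of all). Counted by gene, the 2-fold threshold gave the same counts of members as 1.5-fold. Signal over background is unknown here, so small differences cannot be told from those of unexpressed genes.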

Other observations

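A property of the deposited values bears on reading any single array. The estradiol and ERα17p values were mirror images around 0 (summing to within 0.0001) for 1.68% of the 54613 probe sets other than controls. For the pairs vehicle and estradiol, and vehicle and ERα17p, the shares were 0.967% and 0.888%. Among the potassium channel probe sets 2 were such mirror images, KCNK1 204678_s_at and KCNK15 220540_at. For these the baseline lay midway between the treated arrays, and only the differences between arrays can be read.

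The vehicle array alone stood apart for KCNK2, FXYD5, SCNN1B and 2 of the KCNK1 probe sets. KCNK5 and SGK1 were high on the estradiol array alone. ERα17p minus vehicle was 0.55 for KCNK5, with a sign that turned under scaling, and −0.15 for SGK1. For SGK1 the difference between ERα17p and estradiol, −1.63, does not use the vehicle array, nor does that of KCNK5, −1.84. KCNK1 204678_s_at and FXYD5 differed between these arrays by −0.03 and 0.14.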
